A study of Mus musculus with 12 samples.

Results

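The early response of adult mouse neural precursor cells to hydrogen peroxide was examined by comparing cells exposed for 1 h with sham-treated cells, across all 15478 genes of the authors' deposited table. In 4 samples the cells had been exposed to hydrogen peroxide at 100 µM for 1 h, and in 4 control samples they received phosphate-buffered saline, so 8 of the 12 samples of the series enter, the other 4 being an 8 h exposure. All groups are primary neural precursor cells isolated from adult female C57BL/6 mice and kept undifferentiated, with no genotype given beyond the strain, and the design text pairs 1 h, 8 h and control samples from each of 4 animals. Poly-A RNA was sequenced after a stranded library preparation. When the control cells were collected is not stated in the sources used here, and exposure and time in culture cannot be told apart. The deposited tables give each gene a single fold change for the 1 h comparison, with no values of single samples. Values per sample, the depth behind them and the number of samples left in each group after the authors removed outliers (at most 4) are therefore unknown.

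Neural precursor cells divide in culture and can give rise to neurons, astrocytes and oligodendrocytes. Hydrogen peroxide is a diffusible oxidant. In mammalian cells it can damage DNA and switch on the p53 pathway, kinase cascades that induce immediate-early genes, and antioxidant genes. Within a short exposure, the level of an mRNA can change only as far as its synthesis and decay allow: RNA that is short-lived or quickly made can move early, and a long gene takes longer to transcribe from end to end than a short one.

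The labelled cell type was compared with its defining markers. All 10 listed markers of neural stem and precursor cells were in the table, 8 of them with a mean of at least 4 log2 CPM (log2 of counts relative to library size, as a mean over the series), and the highest reached 11.97. Markers of the other lineages such cells can form were also well expressed, with 5 of 6 astrocyte markers, 7 of 8 of the oligodendrocyte lineage and 4 of 8 of neurons at that level. Only 2 of 7 microglial markers and 5 of 8 endothelial and mural markers were in the table, at means of at most 0.37 and 1.08 log2 CPM, and none of 3 red blood cell markers was. Of the precursor markers 1 rose and 3 fell at 1 h, of the astrocyte markers none rose and 4 fell, and of the oligodendrocyte markers none rose and 4 fell. Of the neuronal markers 1 rose and 2 fell. In the weakly expressed microglial and endothelial and mural lists, 1 and 2 markers rose and none fell. Of 6 ependymal markers 3 were tested, of which 1 rose and none fell. The 1 that rose was Foxj1, at a mean of 5.00 log2 CPM. Among all tested genes 20.5% rose and 22.2% fell, and among those of at least 4 log2 CPM 17.9% and 33.6%. These short lists are given as counts only. In bulk samples, fewer cells of a type and less RNA per cell cannot be told apart.

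A gene was called changed where the adjusted p of the authors' edgeR likelihood ratio test was below 0.05. By that rule 3166 genes, 20.5% of those tested, rose at 1 h and 3440 genes, 22.2%, fell. The numbers were similar, yet the directions differed in kind. Genes that rose had a median absolute log2 fold change of 0.36, and 1 in 10 of them exceeded 1.43. Genes that fell had a median of 0.24, and 1 in 10 exceeded 0.49. Among called genes, 117 rose by at least 2 on the log2 scale and 0 fell as far. Between 1 and 2, 501 rose and 28 fell. Between 0.25 and 0.5 the order was reversed, with 724 that rose and 1363 that fell. Risen genes had a median level of 3.97 log2 CPM, a median summed exon length of 3266.5 bases, a median span on the genome of 11.3 kb and a median of 6 exons. Fallen genes were more strongly expressed and larger, with medians of 6.05 log2 CPM, 7298 bases, 69.4 kb and 17 exons. The share of risen genes among all called was 47.9%. It was 60.8% when fold changes were centred on the median of genes of at least 5 log2 CPM, a shift of -0.04, so the balance of the 2 directions rests on the library scaling.

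Among well expressed genes, the 10 with the highest log2 fold change were Pmaip1, Gdf15, Bbc3, H1f2, Fos, Klf4, Junb, Ptgs2, Arrdc3 and Ddias. In the authors' deposited table Pmaip1, which encodes the pro-apoptotic BH3-only protein Noxa, rose by 2.14 ± 0.06 on the log2 scale (log2 fold change ± implied standard error), a 4.40-fold rise (adjusted p 5.6e-304). Bbc3, which encodes the related protein Puma, rose by 1.60 ± 0.06 in the authors' deposited table, and the secreted stress factor gene Gdf15 by 1.98 ± 0.10. The authors' deposited table gave rises of 1.51 ± 0.13 for Fos and 1.48 ± 0.08 for Junb, subunits of AP-1, and of 1.50 ± 0.06 for Klf4. Ptgs2, whose product makes the precursor of prostaglandins, rose by 1.47 ± 0.09 in the authors' deposited table. The arrestin-family gene Arrdc3 rose by 1.43 ± 0.04 and Ddias, a gene named for suppression of apoptosis after DNA damage, by 1.35 ± 0.05, also per the authors' deposited table. H1f2, a linker histone gene at chromosome 13, 23738808 to 23740367 on GRCm38, rose by 1.52 ± 0.06 in the authors' deposited table. By the size of the test statistic rather than the fold, 4 further genes led: Sesn2 (1.16 ± 0.03), Trp53inp1 (1.20 ± 0.04), Mdm2 (1.06 ± 0.04) and Ppp1r10 (1.06 ± 0.04), in log2 fold changes of the authors' deposited table. The first 3 are p53 targets, and Ppp1r10 encodes a nuclear targeting subunit of protein phosphatase 1.

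The leading falls were smaller, and no well expressed gene fell 2-fold. The serotonin receptor gene Htr1b fell by 0.95 ± 0.08 on the log2 scale in the authors' deposited table (adjusted p 4.7e-31), to 0.52 times its control level. Dusp6, whose product dephosphorylates the kinase ERK, fell by 0.84 ± 0.06 in the authors' deposited table. The architectural chromatin gene Hmga2, at chromosome 10, 120361275 to 120476469 on the minus strand, fell by 0.78 ± 0.05, and Maml2, a coactivator of Notch, by 0.76 ± 0.04, both in the authors' deposited table. The authors' deposited table further gave Sox7 (-0.89 ± 0.07), the actin regulator Shroom4 (-0.87 ± 0.07), the kinase gene Hipk2 (-0.75 ± 0.06), Rassf3 (-0.75 ± 0.05), the inositol phosphatase gene Synj2 (-0.75 ± 0.04) and Samd12 (-0.73 ± 0.10). Xylt1, which starts proteoglycan sugar chains, had the smallest p among falls (-0.68 ± 0.04, adjusted p 2.7e-75), and the navigator gene Nav2, which spans 48908716 to 49610090 on chromosome 7, fell by 0.64 ± 0.04, both per the authors' deposited table.

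The 8 h values, set beside those at 1 h, show which of these leading changes were present at both times. The 1 h and 8 h comparisons share their control samples. At 8 h the authors' deposited table gave 1.95 for Pmaip1, 2.25 for Gdf15 and 1.27 for Mdm2, but 0.10 for Fos, 0.31 for Ptgs2 and -0.35 for H1f2. For the falls it gave -0.65 for Xylt1 and -0.39 for Sox7 at 8 h, but -0.01 for Htr1b, -0.04 for Dusp6 and -0.05 for Nav2. Hmga2 (0.48), Synj2 (0.35) and Samd12 (1.53) were higher than control at 8 h in the authors' deposited table, each called, after a fall at 1 h.

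**Figure D1:**
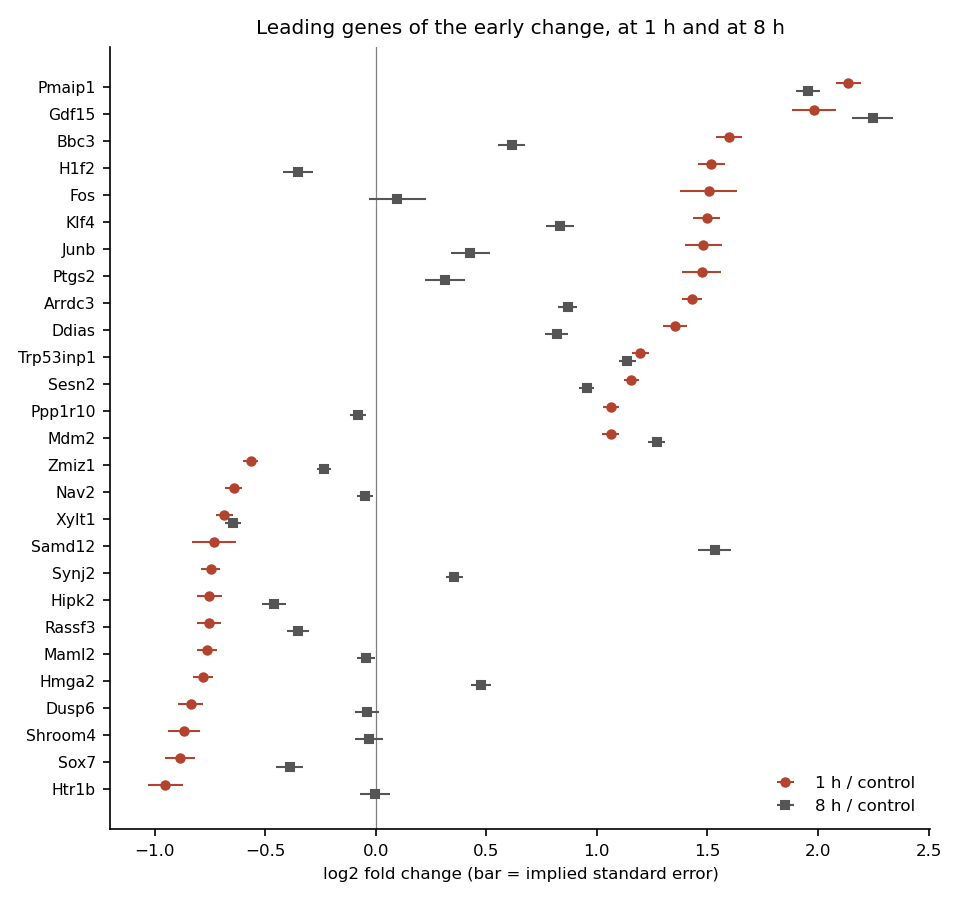
Log2 fold change (x axis) of the 27 well expressed genes with the largest changes or the smallest adjusted p at 1 h, with 1 h against control as circles and 8 h against control as squares; bars are implied standard errors. Pmaip1 and Gdf15 lie near 2 at both times, Fos and H1f2 lie at 1.5 at 1 h and near or below 0 at 8 h, and Samd12 lies at -0.73 and 1.53.

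The sequences before the start of 5 of the leading risen genes are shown because each holds a motif that was searched for, and because these promoters belong to a histone, 3 transcription factors and an arrestin-family gene that moved together at 1 h. They are taken from RefSeq on GRCm38.p6, each the 250 bases before the start, 5′ to 3′ on the gene's strand, in lower case with the motif in capitals. H1f2 (chr13:23738557-23738806, plus strand) and Junb (chr8:84978749-84978998, minus strand) hold CCAAT, the letters of the CCAAT box, 54 and 36 bases before the start, and Arrdc3 (chr13:80883134-80883383, plus strand) holds it at 173. Fos (chr12:85473640-85473889, plus strand) holds TATAAA, the TATA box, at 33, and Klf4 (chr4:55532476-55532725, minus strand) holds CACGTG, an E-box, at 182.
H1f2: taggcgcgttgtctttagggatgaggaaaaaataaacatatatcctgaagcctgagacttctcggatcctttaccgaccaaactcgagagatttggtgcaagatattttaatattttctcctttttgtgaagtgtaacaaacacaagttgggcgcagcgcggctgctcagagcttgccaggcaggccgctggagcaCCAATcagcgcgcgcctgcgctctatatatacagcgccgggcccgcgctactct
Junb: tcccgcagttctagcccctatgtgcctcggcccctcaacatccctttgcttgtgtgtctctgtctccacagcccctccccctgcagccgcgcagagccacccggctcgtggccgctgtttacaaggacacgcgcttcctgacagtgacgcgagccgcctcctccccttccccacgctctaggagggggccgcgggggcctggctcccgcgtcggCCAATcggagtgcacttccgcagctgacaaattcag
Arrdc3: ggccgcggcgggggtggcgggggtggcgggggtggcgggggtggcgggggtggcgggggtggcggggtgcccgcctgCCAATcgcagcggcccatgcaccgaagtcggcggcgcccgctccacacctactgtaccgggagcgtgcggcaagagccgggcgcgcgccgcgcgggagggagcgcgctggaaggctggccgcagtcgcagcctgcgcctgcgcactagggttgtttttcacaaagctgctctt
Fos: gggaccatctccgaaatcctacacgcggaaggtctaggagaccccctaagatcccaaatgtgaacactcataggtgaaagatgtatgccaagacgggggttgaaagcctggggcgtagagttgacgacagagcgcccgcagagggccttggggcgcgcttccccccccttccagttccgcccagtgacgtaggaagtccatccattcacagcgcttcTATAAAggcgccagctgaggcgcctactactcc
Klf4: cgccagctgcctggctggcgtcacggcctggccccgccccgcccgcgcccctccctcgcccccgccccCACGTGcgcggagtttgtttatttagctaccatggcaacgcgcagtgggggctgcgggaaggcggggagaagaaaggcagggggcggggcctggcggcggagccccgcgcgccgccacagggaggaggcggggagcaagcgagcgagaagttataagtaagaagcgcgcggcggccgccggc

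Both strands were searched in these 250 bases, for these 3 motifs and for TGACGTCA (cyclic AMP response element, CRE), TGACTCA (AP-1), TGACNNNGC (core of the antioxidant response element), TGATGCAA, the CArG box and the p53 half-site. Overlaps between motifs were not removed. Of 27025 mouse promoters in the RefSeq table, 34.5% held CCAAT, 12.97% TATAAA and 6.05% CACGTG. The tested genes of at least 4 log2 CPM were set beside these: CRE was held by 4.39% of 1252 risen, 2.32% of 2369 fallen and 3.17% of 3467 uncalled genes. The TATA box was held by 7.35% of risen, 5.07% of fallen and 4.87% of uncalled genes, and the antioxidant core by 14.1%, 11.7% and 11.5%. The p53 half-site was at 6.87%, 6.21% and 5.28%. These shares are small in the difference and are given without a test, and a match of letters describes the window only.

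Expression level was the first property that set the distribution of fold changes apart. In the decile of genes with the lowest mean level, from -1.98 to -0.20 log2 CPM, the median log2 fold change was 0.40, 27.7% of genes rose and 1.29% fell. In the highest decile, from 7.24 to 12.96 log2 CPM, the median was -0.05, 20.2% rose and 43.0% fell. The median implied standard error was 0.37 in the lowest decile and 0.04 in the highest, so a fold change had to be larger to be called at low level. Of the 618 genes called and at least 2-fold higher (3.99% of those tested), 563, or 91.1%, had a mean below 2 log2 CPM, and 23 had at least 4. How the authors filtered low values is not stated in the sources used here. A gene near the bottom of the table may have entered it because it was high in 1 group, and for such genes a difference is partly built in, so the counts at low level are descriptions of the table only.

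Gene size went with the fold change in the same direction as level: short genes, like those at low level, lay more to the risen side, and long genes more to the fallen side. In the decile of genes with the shortest summed exon length (56 to 1372 bases), 24.0% rose and 2.13% fell, with a median log2 fold change of 0.15. In the longest decile (9739 to 123179 bases), 5.56% rose and 64.1% fell, with a median of -0.22. By span on the genome the longest decile (128302 to 2960900 bases) had 1.55% risen and 61.0% fallen, with a median of -0.26. Genes with 23 to 166 exons had a median of -0.22, and 65.8% of them fell. Guanine and cytosine content of the transcripts moved little, with medians of -0.04 in the lowest and 0.07 in the highest decile. Spearman correlations with the log2 fold change over all genes, given as descriptions, were -0.34 for level, -0.40 for exon length, -0.43 for span and 0.14 for GC content. Level and exon length were themselves correlated at 0.39, and exon length and span at 0.72, across genes that are not independent.

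**Figure D2:**
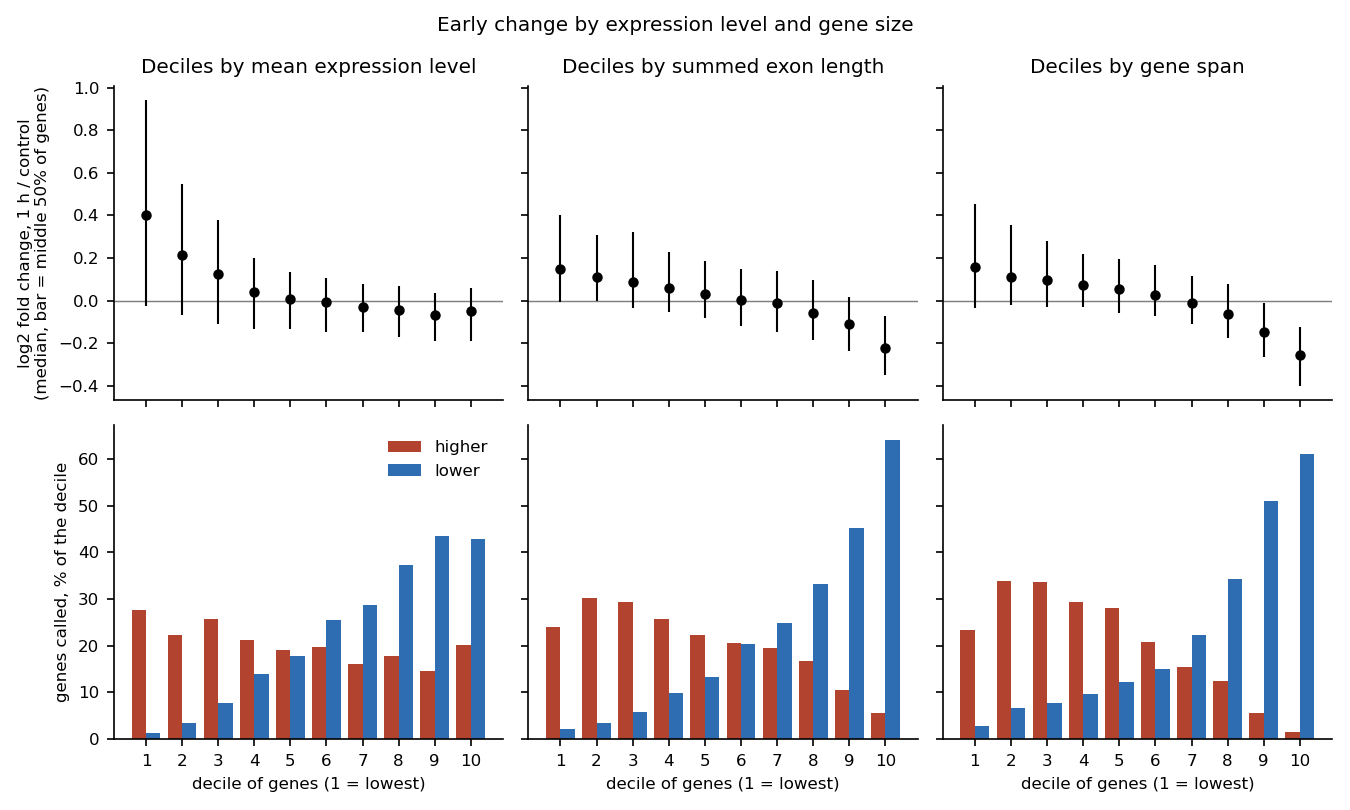
Upper row: median log2 fold change of 1 h against control (dot) with the middle 50% of genes (bar), for deciles of genes by mean expression level, summed exon length and gene span, lowest to highest. Lower row: percent of each decile called higher or lower. The share of fallen genes climbs to 64.1% in the longest exon decile and 61.0% in the longest span decile, and the median falls to -0.22 and -0.26.

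The size pattern was also present among well expressed genes. Among the 8775 genes of at least 4 log2 CPM, the decile with the longest span had 0.911% risen and 83.3% fallen genes, with a median log2 fold change of -0.30. The shortest span decile had 40.4% risen and 7.29% fallen, with a median of 0.08. Spearman correlations with the log2 fold change among these genes were -0.58 for span, -0.51 for exon length, -0.52 for exon number and -0.13 for level. Exon length and span were then set against each other. The 547 well expressed genes with under 2 kb of exons and a span under 10 kb had a median of 0.11, and 45.3% of them rose. The 563 genes with at least 10 kb of exons and a span of at least 100 kb had a median of -0.33, and 89.7% fell. With exon length held between 6 and 10 kb, the median went with span: it was 0.04 in the 68 genes under 10 kb and -0.25 in the 470 genes of at least 100 kb. With span held between 10 and 30 kb, the median was 0.07 in the 161 genes with under 2 kb of exons and -0.03 in the 82 with at least 10 kb. With a span of at least 100 kb, it was -0.09 in 82 genes with 2 to 4 kb of exons, -0.18 in 183 with 4 to 6 kb and -0.33 in those with at least 10 kb. Both measures therefore went with the median when the other was held. By level, among genes of at least 100 kb span, the median was -0.24 at 4 to 6 log2 CPM (669 genes) and -0.29 at 6 or more (635 genes, of which 0.945% rose and 90.4% fell). It was -0.10 in 378 genes below 2 log2 CPM.

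**Figure D3:**
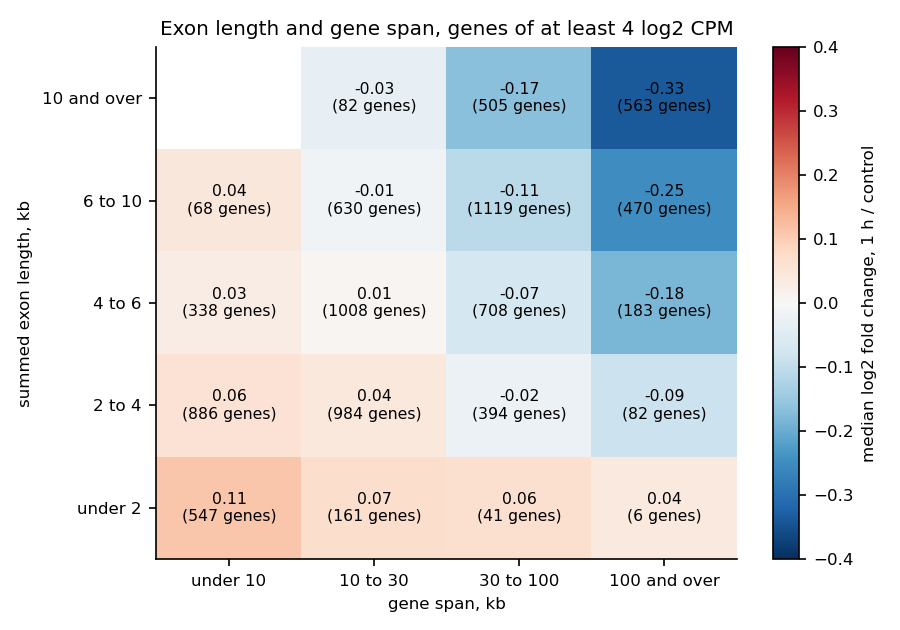
Median log2 fold change of 1 h against control for genes of at least 4 log2 CPM, by summed exon length (y axis, kb) and span on the genome (x axis, kb), with the number of genes in each cell; the corner with under 2 kb of exons and under 10 kb of span is at 0.11, and the corner with at least 10 kb and 100 kb is at -0.33. Values are lower towards the right of a row and, for spans of at least 30 kb, towards the top of a column.

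The genes with the largest rises lay mostly at low level, and many of them start a short way past the end of a well expressed gene on the same strand. Of 4100 genes below 2 log2 CPM with an annotated position, 560 (13.7%) were called and at least 2-fold higher. Among the 321 whose nearest non-overlapping gene of at least 4 log2 CPM ended 0 to 5 kb before their start on the same strand, the share was 36.4%, with a median log2 fold change of 0.69. It was 32.7% of 367 genes at 5 to 20 kb, 16.2% of 309 at 20 to 50 kb, 9.65% of 311 at 50 to 100 kb and 7.69% of 1730 beyond 100 kb. Where the well expressed gene before the start lay on the opposite strand, the shares from the nearest to the farthest distance were 14.2%, 16.4%, 17.6%, 17.6% and 13.6%. Where it lay past the gene's end on the same strand, they were 19.6%, 18.1%, 19.2%, 17.5% and 12.8%. Counted as genes called higher by any fold, the differences were smaller higher in level. Below 2 log2 CPM, 57.3% of the 321 genes with a same-strand neighbour 0 to 5 kb before the start rose, beside 25.0% of all 4100. At 2 to 4 log2 CPM, 37.6% of 189 genes with such a neighbour rose (median 0.16), beside 21.8% of all 2594 genes at that level (0.04). Called and at least 2-fold higher were 3.17% of these 189 genes, beside 1.23% of the 2594. At 4 log2 CPM or more it was 22.6% of 620 genes (median 0.01), beside 17.9% of all 8775 (-0.03). Whether RNA that continues past the end of the neighbour adds to these counts was not tested.

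**Figure D4:**
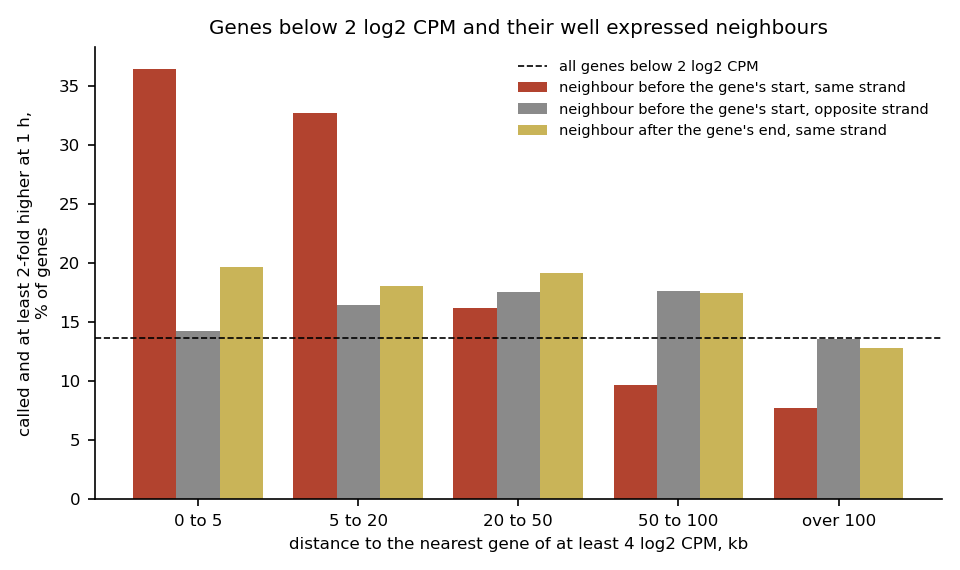
Percent of genes below 2 log2 CPM that were called and at least 2-fold higher at 1 h (y axis), by distance to the nearest gene of at least 4 log2 CPM (x axis, kb), for 3 placements of that neighbour; the dashed line is the share among all genes below 2 log2 CPM, 13.7%. Bars for a same-strand neighbour before the start reach 36.4% and 32.7% within 20 kb and fall to 7.69% beyond 100 kb.

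The genes at the very top include several that are best known from other tissues. The 12 with the highest log2 fold change at any level, placeholder symbols aside, were chosen after their values were seen. In the authors' deposited table the stomatin-family gene Stoml3 stood at 6.71 ± 0.88, at a mean of -1.80 log2 CPM, 6.90 kb past Proser1, and the voom table gave 4.56 for it. Tas1r2, a sweet taste receptor subunit gene, rose by 3.84 ± 0.40 in the authors' deposited table and starts 3.85 kb past Aldh4a1. Lct, which encodes intestinal lactase, rose by 3.79 ± 0.36 in the authors' deposited table, 3.27 kb past the replication gene Mcm6. The authors' deposited table gave 3.54 ± 0.61 for the pancreatic lipase gene Cel, 2.91 kb past Gtf3c5, and 3.43 ± 0.38 for the cytokine gene Il17f, 12.4 kb past Mcm3. The log2 fold changes of the neighbours before these 5 genes were smaller in the authors' deposited table: -0.09 for Proser1, 0.17 for Aldh4a1, 0.24 for Mcm6, 0.09 for Gtf3c5 and 0.09 for Mcm3. Another of the 12, Slc2a2, starts past Tnik, which stood at -0.55 in the authors' deposited table. The histone gene H4c4 (3.63 ± 0.49 in the authors' deposited table) is the only 1 of the 12 with no such neighbour within 50 kb. At 8 h the authors' deposited table gave 0.14 for Lct, 0.84 for Cel and -1.15 for Il17f, none called, and 1.38 for Tas1r2, called. Of the most strongly expressed genes of the class, which the rule for named genes takes, 4 were Star (1.19 ± 0.16, 2.58 kb past Lsm1), Artn (1.10 ± 0.19, 2.39 kb past St3gal3), Tincr (1.73 ± 0.15, 6.58 kb past Safb2) and Icam1 (1.06 ± 0.21, 7.15 kb past Mrpl4), in log2 fold changes of the authors' deposited table. Artn, a neurotrophic ligand gene, and Icam1, an adhesion gene, stood at 1.80 and 2.85 at 8 h in the authors' deposited table, whereas Star and Tincr stood at 0.03 and -0.49.

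RNA classes other than mRNA were examined next. Of 396 antisense RNA genes 108 rose and 17 fell (median log2 fold change 0.30), and of 374 long intergenic RNA genes 93 rose and 32 fell (0.19). Of 73 bidirectional-promoter RNA genes 26 rose and 2 fell (0.23). Protein-coding genes below 2 log2 CPM were at 656 risen and 68 fallen of 2262, a median of 0.29, beside 91 and 9 of 343 antisense genes at that level (0.35), and 25.0% of all genes below 2 log2 CPM rose. Sense intronic RNA genes (3 risen and 8 fallen of 56, median -0.06) and miRNA genes (1 and 2 of 21, -0.04) had slightly negative medians. At 4 log2 CPM and above, 4 of 12 antisense genes rose and 4 fell. Among the strongly expressed noncoding genes, the authors' deposited table gave a fall of 0.31 ± 0.05 for Malat1, a nuclear RNA, and 0.22 ± 0.04 for Xist, which coats the inactive X chromosome. The sources used here do not state the strand setting of the authors' counting, so reads of a gene and of its antisense partner cannot be told apart. Of the 17 genes of the mitochondrial chromosome, the ribosomal RNA genes mt-Rnr1 and mt-Rnr2 rose by 0.42 ± 0.04 and 0.43 ± 0.04 and the mRNA gene mt-Nd5 fell by 0.22 ± 0.03 in the authors' deposited table. The transfer RNA genes mt-Tm (1.03 ± 0.21) and mt-Tl1 (0.38 ± 0.13) also rose in the authors' deposited table, and the other 12 were not called. Libraries made from poly-A RNA capture ribosomal and transfer RNA only in part, so these levels describe the captured fraction.

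Genes were then grouped into 55 families by symbol, which were read against the shares of all genes, 20.5% risen and 22.2% fallen, and the overall median log2 fold change of 0.01. The lists were not used for any set test. In several families of small genes for translation, respiration and protein turnover, more members rose than fell, by small amounts. Of 80 cytosolic ribosomal protein genes 72 rose and none fell, with a median of 0.19 (0.23 when centred). In the authors' deposited table Rps27a rose by 0.26 ± 0.04, Rpl32 by 0.25 ± 0.04 and the p53-inducible Rps27l by 0.25 ± 0.04. Genes that host small nucleolar RNAs in their introns moved alike, 11 of 17 risen and none fallen (median 0.23, highest 0.67). Those with the smallest adjusted p, not the largest fold, were Snhg15 (0.52 ± 0.07), Snhg1 (0.35 ± 0.05) and Gas5 (0.23 ± 0.04) in the authors' deposited table. Of 48 subunit genes of cytochrome oxidase, the ATP synthase and complex III 22 rose and none fell (0.11), of 48 complex I genes 19 rose and 1 fell (0.09), and of 50 proteasome genes 21 rose and 3 fell (0.09). Mitochondrial ribosomal protein genes were at 21 risen and 2 fallen of 78, a median of 0.05. All of these have median spans of at most 11.6 kb. Of well expressed genes with spans under 10 kb, 45.3% rose with under 2 kb of exons and 32.8% with 2 to 4 kb. Of the cytochrome oxidase, ATP synthase and complex III genes 45.8% rose, and of the proteasome genes 42%. Complex I genes were at 39.6% and mitochondrial ribosomal protein genes at 26.9%. Cytosolic ribosomal protein genes were at 90% and hosts of small nucleolar RNAs at 64.7%. Whether any of these families rose more often than genes of like level and size was not tested.

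Histone genes had the highest median of the 55 families. Of 29 tested, 23 rose and none fell, with a median log2 fold change of 0.49 and a range of 0.15 to 3.63, and 10 rose at least 2-fold. Below 2 log2 CPM lay 15 of them, where entry into the table may depend on the rise, and of the 10 with at least 4 log2 CPM all 10 rose (median 0.39). The linker histone gene H1f3 stood at 3.19 ± 0.18, and H2bc6, a core histone gene, at 2.00 ± 0.14, in the authors' deposited table, at means of 1.42 and 1.96 log2 CPM. At 8 h the family median was -0.45, with 4 genes higher and 16 lower than control, and H1f3 and H2bc6 were at -0.75 and -0.85 in the authors' deposited table. Replication-dependent histone mRNAs end in a stem-loop and not in a poly-A tail, so poly-A libraries hold only part of them, and whether their total level changed was not tested. Of 4 proliferation markers 2 rose and none fell at 1 h (median 0.13), and their part in the histone values was not tested.

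Transcription factor families split by kind. Of 43 bZIP factor genes, which include AP-1, ATF and CEBP members, 26 rose and 7 fell, with a median log2 fold change of 0.21 and 8 genes at least 2-fold higher. In the authors' deposited table Fosl1 rose by 0.94 ± 0.04, Fosl2 by 1.10 ± 0.05 and Fosb by 3.09 ± 0.15, and at 8 h they were at 0.83, 0.38 and 0.63. Kruppel-like and Sp factors (11 of 20 risen, 3 fallen, median 0.17) were led by Klf4 and Klf11 (1.42 ± 0.10), against a fall of Klf12 (-0.62 ± 0.05), all in the authors' deposited table. Zinc finger factors whose symbols name BTB, KRAB or SCAN domains were at 28 risen and 13 fallen of 64 (0.15). Zbtb20 among them fell by 0.56 ± 0.05 in the authors' deposited table. Genes with a Zfp symbol were counted apart, whatever their domains, so these 2 groups differ by symbol and not by domain. The large Zfp series gave 76 risen and 81 fallen of 363, a median of 0.01, close to the background. Sox factors moved the other way: none of 14 rose and 9 fell, with a median of -0.21. The authors' deposited table gave -0.49 ± 0.04 for Sox6 and -0.41 ± 0.04 for Sox8, factors of glial and oligodendrocyte development, beside Sox7 above. Of 54 homeobox genes 8 rose and 20 fell (-0.10), among them Zeb1 (-0.41 ± 0.03), Meis2 (-0.38 ± 0.03) and the neural factor gene Pou3f2 (-0.53 ± 0.05), per the authors' deposited table. Basic helix-loop-helix genes were balanced over all levels, at 16 risen and 16 fallen of 49. At 4 log2 CPM or more, 6 of 35 rose and 14 fell (median -0.10). Bhlhe40 rose by 0.89 ± 0.06 and Olig2, the oligodendrocyte lineage factor, fell by 0.64 ± 0.04 in the authors' deposited table. Nuclear receptors gave 9 risen and 7 fallen of 33, with the immediate-early receptor gene Nr4a1 at 1.15 ± 0.07 and the circadian repressor gene Nr1d1 at 0.87 ± 0.05 in the authors' deposited table.

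In several families of large signalling, adhesion and chromatin genes, more members fell than rose. Of 38 receptor tyrosine kinase genes 2 rose and 23 fell (median log2 fold change -0.21). Egfr, the epidermal growth factor receptor gene, fell by 0.54 ± 0.04 in the authors' deposited table, whereas Epha2 and Ephb3 rose by 0.51 ± 0.05 and 0.49 ± 0.05. Of 24 phosphodiesterase and adenylyl cyclase genes none rose and 10 fell (-0.20), with Pde10a at -0.64 ± 0.04 in the authors' deposited table. Cadherins and protocadherins were at 3 risen and 34 fallen of 79 (-0.21), and Fat1 fell by 0.44 ± 0.04 at 1 h and stood at 0.77 at 8 h in the authors' deposited table. Guidance genes, the semaphorins, plexins, ephrins, Slit and Robo, were at 6 risen and 24 fallen of 55 (-0.17), with Plxna2 at -0.54 ± 0.04 in the authors' deposited table. Remodelling factors (4 risen and 22 fallen of 47, -0.16) and lysine demethylases and methyltransferases (8 and 27 of 52, -0.13) followed, with Kmt2c (-0.50 ± 0.04) and Bptf (-0.49 ± 0.04) in the authors' deposited table. Among the exceptions in these groups, Arid5a (1.90 ± 0.10, at a mean of 2.88 log2 CPM), Brd2 (0.40 ± 0.03) and Kdm3a (0.42 ± 0.04) rose in the authors' deposited table. The median spans of these 6 families ran from 51.5 to 131.7 kb, and family and gene size cannot be told apart here. Among all genes with spans of 30 to 100 kb, 57.9% fell at 6 log2 CPM or more and 31.8% at 4 to 6. Of the remodelling factors 46.8% fell, and of the lysine demethylases and methyltransferases 51.9%, at median levels of 6.51 and 6.33 log2 CPM. Of the phosphodiesterase and adenylyl cyclase genes 41.7% fell, at a median span of 131.7 kb and a median level of 4.42 log2 CPM. The receptor tyrosine kinases were at 60.5% (92.9 kb, level 5.41) and the cadherins and protocadherins at 43.0% (94.9 kb, level 3.29). The guidance genes were at 43.6% (58.5 kb, level 3.74). Whether any of these families fell more often than genes of like level and span was not tested.

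Other families had risen and fallen members in more equal number over all levels: solute carriers (54 risen and 54 fallen of 246), G protein-coupled receptors (23 and 32 of 116) and chaperones (17 and 17 of 73). At 4 log2 CPM or more, more members of each fell: 28 risen and 48 fallen of 151, 5 and 24 of 48, and 11 and 16 of 56. Among all genes at that level, 17.9% rose and 33.6% fell. Rab GTPases were called less often in each direction (5 and 6 of 55, or 9.09% and 10.9%). The medians of these 4 families lay between -0.03 and 0.03, and the sign of the G protein-coupled receptor and Rab medians turned on centring, that of the solute carriers on leaving out genes below 1 log2 CPM. Single members stood out within them. Slc16a6 rose by 1.14 ± 0.06 and the zinc exporter gene Slc30a1 by 0.90 ± 0.05 in the authors' deposited table, and Slc30a1 was at 0.03 at 8 h. The prostaglandin receptor gene Ptger1 rose by 1.65 ± 0.08 at 1 h and was at -0.94 at 8 h in the authors' deposited table. Ptger1 overlaps a gene of at least 4 log2 CPM and starts 1.98 kb past Gipc1 on the same strand. Rab26, at a mean of 1.56 log2 CPM and also overlapping such a gene, fell by 1.46 ± 0.16 in the authors' deposited table. Among RNA-processing and transcription machinery, the termination factor gene Pcf11 rose by 0.62 ± 0.04, the initiation factor gene Taf1 fell by 0.46 ± 0.04 and the splicing kinase gene Clk1 rose by 0.38 ± 0.05 in the authors' deposited table. Of 31 integrator and cleavage and polyadenylation genes 6 rose and 13 fell, and small nuclear ribonucleoprotein and Sf3 genes were at 17 risen and 4 fallen of 40 (0.09).

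**Figure D5:**
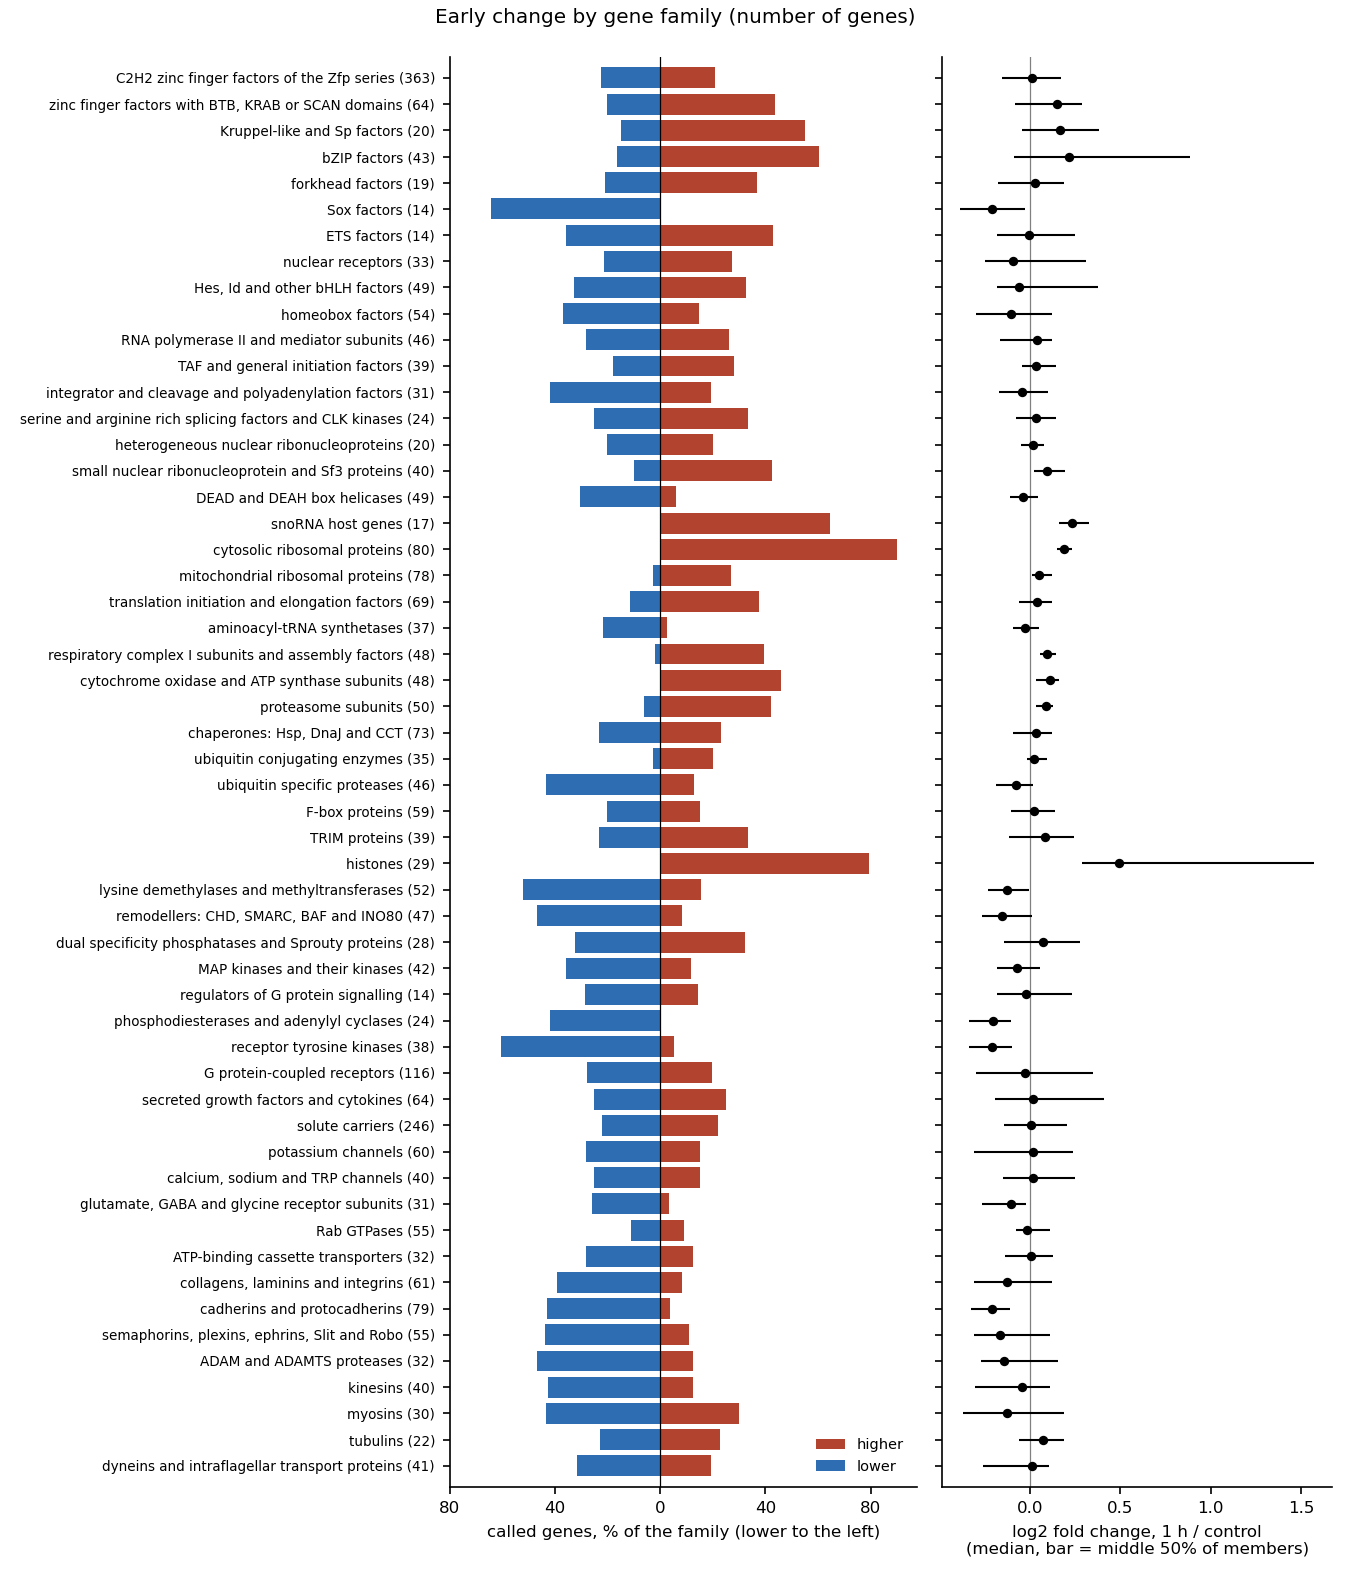
Left: percent of each gene family called higher (right of 0) or lower (left of 0) at 1 h, with the number of genes after the name. Right: median log2 fold change of 1 h against control (dot) and the middle 50% of members (bar); cytosolic ribosomal proteins have 72 of 80 genes called higher and a median of 0.19, histones reach a median of 0.49, and receptor tyrosine kinases lie at -0.21.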

How the data were processed

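Poly-A RNA of primary neural precursor cells was sequenced. Per the submitters' processing notes edgeR and limma were used on GRCm38; the sources used here name no aligner or tool version. Per the file headers, the authors tested gene counts with an edgeR GLM likelihood ratio test, and in a second table with voom and limma. The authors deposited log2 fold changes and mean log2 CPM, a p-value and its Benjamini-Hochberg adjusted form, and the likelihood ratio or moderated statistic as a score. The deposited tables also hold other columns, such as exon length and the authors' calls, and no column of a single sample.

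The GLM table is the main result. Adjusting the deposited p-values again over all 15478 genes gave the deposited adjusted values to within 1.3e-15, and the authors' calls differed for 0 genes. The implied standard error is the size of the log2 fold change over the root of the likelihood ratio; its median ratio to that of the voom table was 1.06. Positions, biotypes and GC content came from GENCODE on GRCm38, matched by Ensembl identifier for 15469 genes, and exon length was the same as the deposited one for 98.2% of genes. Promoters are the 250 bases before the RefSeq start, found by symbol for 10950 genes. Families were defined by symbol patterns, and those with under 8 genes were not described. Named genes were the 10 highest and 10 lowest by fold at 4 log2 CPM or more, the 6 with the smallest adjusted p in each direction, up to 3 per family and 3 per class of neighbour or RNA. Members, lists and families were chosen with earlier results of these data known. The arithmetic of the calls, the p-value adjustment, the implied standard errors, the centring and the deciles was checked on simulated or made-up values. The neighbour, family and motif steps were not checked in this way. Alternatives were the voom table, an adjusted p below 0.01, a mean of at least 1 log2 CPM, and centring on genes of at least 5 log2 CPM. Python 3.11.15, pandas 2.3.3, numpy 2.4.6 and scipy 1.17.1 were used. The gene set tables were not used here. A gene and a family picked by these rules go unreported here.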

Additional observations from a re-analysis of the deposited data

Results flagged for a closer look

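Of the 206 genes taken by the naming rules, 51 were called in opposite directions at 1 h and at 8 h, each against the same control samples. For all 51 the difference between these times was also called in the authors' deposited table. Opposite calls make that difference larger than either change, so its call adds no separate support. The 51 comprise 21 that rose at 1 h and were lower than control at 8 h, and 30 that fell at 1 h and were higher at 8 h. The rules take genes that were called at 1 h, and the share of opposite calls over all tested genes is not given here. The count therefore describes the named genes only, and whether reversal is more frequent among them was not tested. The 22 of them named in the text are given here by the log2 fold change at 8 h minus that at 1 h, from the authors' deposited table. Among 13 that rose at 1 h, the histone genes gave -3.94 (H1f3), -2.86 (H2bc6) and -1.87 (H1f2). Transcription factor and chromatin genes gave -2.24 (Arid5a), -1.85 (Klf11) and -1.67 (Nr4a1), and genes of RNA processing gave -0.73 (Pcf11), -0.61 (Snhg1) and -0.60 (Clk1), in the authors' deposited table. The others that rose were Ube2c (-2.92), Ptger1 (-2.59), Tincr (-2.23) and Ppp1r10 (-1.15), per the authors' deposited table. Among the 9 that fell at 1 h, the authors' deposited table gave 2.26 for Samd12, 1.26 for Hmga2, 1.21 for Fat1, 1.10 for Synj2, 0.96 for Egfr and 0.95 for Zbtb20. It gave 0.76 for Dync1h1, 0.74 for Usp9x and 0.30 for B230354K17Rik, also in the authors' deposited table. The smallest margin was that of Ppp1r10 at 8 h, where the log2 fold change was -0.08 ± 0.04 (adjusted p 0.046, edgeR, per the authors' deposited table).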

How the results depend on the processing

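The numbers of genes that rose and fell were 3004 and 3414 in the authors' voom and limma table, 2285 and 2763 at an adjusted p below 0.01, 2447 and 3408 among genes of at least 1 log2 CPM, and 4147 and 2676 after centring. Both tables called 6293 genes in the same direction and 0 in opposite ones, 313 only by the GLM and 125 only by voom. With genes of at least 1 log2 CPM, those at least 2-fold higher numbered 114 in place of 618, and those at least 2-fold lower 8 in place of 28, because most of them lie below that level. After centring, the median log2 fold change of the highest decile by level was -0.0051 in place of -0.05. The signs of family medians turned for 7 families under centring and 5 without the lowest genes, all with medians within 0.05 of 0, and for none in the voom table. Of the 206 named genes, Brip1os and B230354K17Rik lost their call under centring, and Gm7536 and Tpt1-ps3 in the voom table. A neighbour of at least 1 log2 CPM in place of 4, an alternative chosen after seeing the data, gave 31.6% in place of 34.4% within 20 kb on the same strand. No paired analysis was possible because the deposited files hold no values of single samples, and for the same reason no replicate could be left out in turn. Depth limits the low genes most, where the implied standard error is largest.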

Other observations

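Ubiquitin-related families, not described above, differed among themselves at 1 h. Of 35 ubiquitin conjugating enzyme genes 7 rose and 1 fell (median log2 fold change 0.02), whereas of 46 ubiquitin specific protease genes 6 rose and 20 fell (-0.08), with Usp9x at -0.53 ± 0.04 and Usp24 at -0.48 ± 0.04 in the authors' deposited table. Usp2 rose by 0.75 ± 0.05 at 1 h and was at 0.76 at 8 h in the authors' deposited table. The mitotic gene Ube2c rose by 0.29 ± 0.07 at 1 h and stood at -2.62 at 8 h in the authors' deposited table. Of 40 kinesin genes 5 rose and 17 fell, and of 30 myosin genes 9 rose and 13 fell; the kinesin median of -0.04 turned positive on centring. In the authors' deposited table Kif1b fell by 0.40 ± 0.04, Myo6 by 0.40 ± 0.03 and the dynein heavy chain gene Dync1h1 by 0.42 ± 0.04. Of 22 tubulin genes 5 rose and 5 fell (22.7% each, near the shares of all genes), with Tubb4b at 0.35 ± 0.03 in the authors' deposited table.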
